A study of Mus musculus with 9 samples.

Results

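Stk38l and Stk38 encode NDR2 and NDR1, the closely related nuclear Dbf2-related serine/threonine kinases. They were followed through every probe that carries either name on the Agilent mouse gene arrays, 3 probes for Stk38l and 2 for Stk38, of 39429 gene probes in all. The pair of genes was selected on these same arrays, because a dim Stk38l probe placed on chromosome 1 was far higher in IF1-TG mice than the Stk38l probes placed on chromosome 6. The IF1-TG values of the 5 probes are therefore given as a description without a test. The comparison of IF1-KO with CRL mice did not enter the selection and was tested. It shares its CRL arrays with the comparison of IF1-TG with CRL mice, so it is not fully independent of the selection. All 5 probes passed the filter on dim signals.

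RNA came from the hippocampus of male C57BL/6J mice aged 9 months, 3 mice for each of the genotypes IF1-KO, IF1-TG and control (CRL), with 1 array per mouse. In IF1-KO mice a floxed Atpif1 allele, the gene of the ATPase inhibitory factor IF1, had lost an exon through Cre driven by the Camk2a promoter, which acts mostly in excitatory forebrain neurons, so that the other cells of the tissue keep the gene. The floxed line was derived from a C57BL/6N allele and bred through an Flp deleter line that carried SJL ancestry. In IF1-TG mice human IF1 stood under a tetracycline-regulated element and was switched on by the transactivator tTA under the same promoter, from lines that also carried CBA ancestry. The label CRL does not say which of these alleles the control mice carried.

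NDR kinases belong to the AGC kinase family, together with the LATS kinases of the Hippo pathway. MST kinases phosphorylate them, MOB1 proteins bind and activate them, MOB2 competes with MOB1 for the same kinases, and Furry proteins act as large scaffolds. In hippocampal neurons NDR1 and NDR2 are known for limiting dendrite branching and for shaping spines, through substrates that include the kinase AAK1 and the Rab8 exchange factor Rabin8, encoded by Rab3ip.

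Signals are given on a log2 scale on which 0 is the 75th percentile of processed intensity on the same array and negative values are dimmer. That percentile was 2049 to 2359 on the IF1-KO arrays, 1922 to 2690 on the CRL arrays and 1552 to 1739 on the IF1-TG arrays, and fewer probes were well above background in IF1-TG mice (66.8% to 69.7%) than on the other arrays (71.2% to 74.9%). By slide, the IF1-TG mice were split into replicates 1 and 2 on slide 1 and replicate 3 on slide 2, the CRL mice into replicates 1 and 2 on slide 2 and replicate 3 on slide 3, and the IF1-KO mice into replicate 1 on slide 2 and replicates 2 and 3 on slide 3. On slide 1 genotype and slide cannot be told apart. The targeted gene Atpif1 read 6.43 on the array labelled IF1-KO replicate 1, above the CRL range of 6.19 to 6.34, whereas replicates 2 and 3 of that label were reduced, at 5.20 and 5.53. For the Stk38l and Stk38 probes the differences between IF1-KO and CRL are therefore also given with that array left out. Markers of excitatory neurons were on average at 1.41 to 1.62 on all 9 arrays, and those of interneurons at 3.46 to 3.50 in CRL, 3.28 to 3.45 in IF1-KO and 3.08 to 3.45 in IF1-TG mice, where 1 probe of Pvalb was lower than in CRL by -0.65 (standard error 0.27) and another differed by 0.09 (0.16). Striatal markers spanned -1.48 to -0.38 in CRL, -1.74 to -1.41 in IF1-KO and -1.75 to -1.47 in IF1-TG mice, with Adora2a lower than in CRL by -1.16 (0.41) in IF1-KO and by -0.96 (0.41) in IF1-TG mice. The brightest probes of all 6 striatal markers were lower than in CRL in both genotypes, with medians of -0.42 in IF1-KO and -0.38 in IF1-TG mice. Choroid plexus markers spanned -1.87 to 2.11 in CRL, -2.44 to 1.92 in IF1-KO and -1.72 to 3.21 in IF1-TG mice. None of the 5 passed the thresholds in any comparison, where at most 2.83% of all gene names passed in 1 direction. Their medians were -0.47 from CRL to IF1-KO and 0.37 from CRL to IF1-TG mice. From IF1-KO to IF1-TG mice all 5 were higher, with a median of 0.87. Oligodendrocyte markers spanned 2.94 to 3.29, 2.65 to 3.09 and 3.08 to 3.18 in CRL, IF1-KO and IF1-TG mice, with none of 7 past the thresholds, beside the same shares of all gene names. Astrocyte markers spanned 1.51 to 1.59, 1.41 to 1.64 and 1.56 to 1.64 in that order. From IF1-KO to IF1-TG mice 1 probe of the astrocyte gene Aqp4 was higher by 0.79 (0.19), where 2.15% of all gene names were higher. The brightest probes of the 5 astrocyte markers differed there by -0.13 to 0.40, with a median of 0.06. The part of these cell types in the values below was not tested.

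The sequences of the probes are shown because the Stk38l probes disagree in size although the deposited annotation assigns them to the same transcript, NM_172734. Each probe is 60 bases long, is named here by the base of the transcript at which the annotation starts it, and was printed as 1 spot. Positions are on mm9, and the annotation names no exon, intron or UTR for them. The probe at base 757 is given whole, and the others by their first 30 bases, each 5′ to 3′ with the stop triplets TAA, TAG and TGA, in any frame, in capitals.
Stk38l, base 757: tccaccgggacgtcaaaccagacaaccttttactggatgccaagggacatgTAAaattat
Stk38l, base 2280: gcTGAgtttcagaaaTGAccaTGAaagctg
Stk38l, base 4473: ttttTAAgcaataTAAtccagcagttgtcc
Stk38, base 1876: gtatgtgctgTAAagagaattTGAtttccc
Stk38, base 2982: ttgggttttcatgtctTAGaTGAagaaaaa

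The Stk38l probe at base 757 lies on chromosome 1 from 100354973 to 100355032, plus strand. The other Stk38l probes lie on chromosome 6, the one at base 2280 from 146725000 to 146725059 and the one at base 4473 from 146727193 to 146727252, both on the plus strand. The Stk38 probes (NM_134115) lie on the minus strand of chromosome 17, from 29109182 to 29109241 for base 1876 and from 29108076 to 29108135 for base 2982. Placement of the probes of 1 gene name on more than 1 chromosome was found for 376 of the 4654 gene names with at least 2 kept probes (8.08%). The chromosome 1 placement could not be examined against the mm9 sequence, which was not used here.

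The probe at base 757 had a GC content of 45.0%, equal to that of the probe at base 4473 and above the 35.0% of the probe at base 2280. Over its 60 bases it held 1 stop triplet, against 6 at base 2280, 3 at base 4473 and 4 in each of the Stk38 probes. The longest run that it shared with any other probe of the array was 14 bases, and the corresponding runs of the other 4 probes were 13 to 15 bases. Among the features counted here, it thus stood apart from the other member probes by its low number of stop triplets. Of its 3 frames 2 held no stop, as at base 4473, against 0 in each of the remaining member probes. At least 1 frame without a stop is found in 79.6% of all probes. What the letters encode was not examined.

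At base 757 the Stk38l signal was dim in CRL and IF1-KO mice and higher in IF1-TG mice, by more than at any other Stk38l or Stk38 probe. The log2 signal was -5.73, -5.67 and -5.33 on the CRL arrays, -5.17, -5.11 and -5.32 on the IF1-KO arrays, and -3.48, -2.89 and -2.89 on the IF1-TG arrays, in the order of the replicate numbers. Every IF1-TG array lay above all other arrays, with IF1-TG replicate 1 the lowest of its genotype. The means were -5.58 ± 0.22 (SD, n = 3) in CRL, -5.20 ± 0.11 in IF1-KO and -3.09 ± 0.34 in IF1-TG mice.

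In the uncorrected readings the IF1-TG arrays again lay above all others, over a smaller range, while the IF1-KO and CRL arrays overlapped. The mean spot signal was 126, 126 and 160 on the CRL arrays, 138, 175 and 147 on the IF1-KO arrays, and 213, 285 and 287 on the IF1-TG arrays, over a local background of 41 to 50. The software subtracted a fitted background surface, which left a processed intensity of 36.2 to 66.9 in CRL, 51.4 to 68.1 in IF1-KO and 145 to 234 in IF1-TG mice. The spot was well above background on 9 of 9 arrays. Its processed intensity was 2.57 to 4.07 times the lowest intensity called well above background on the CRL arrays, 3.44 to 3.85 times on the IF1-KO arrays and 8.43 to 15.3 times on the IF1-TG arrays, so that the CRL and IF1-KO values were close to the detection limit and the subtraction weighs most on them.

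**Figure D1:**
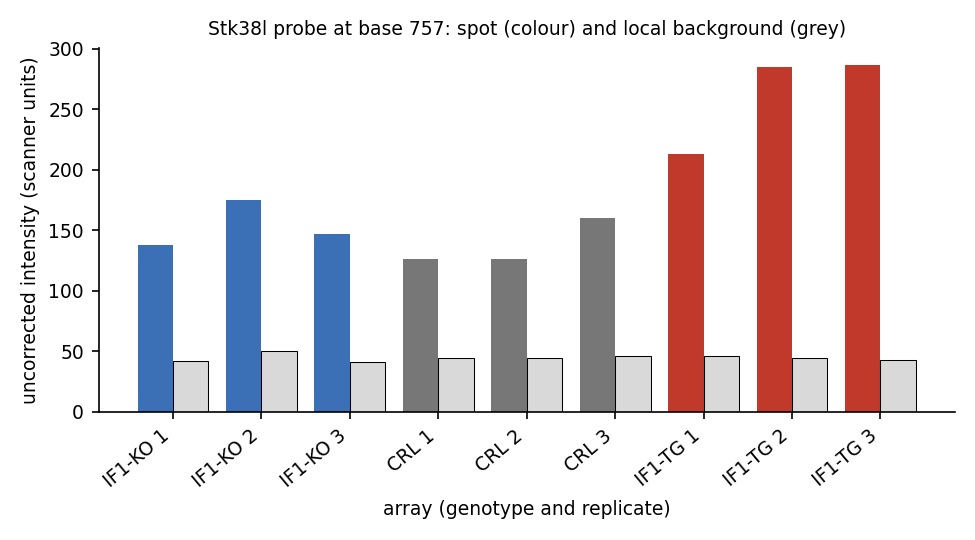
Uncorrected readings of the Stk38l probe at base 757 on each of the 9 arrays: coloured bars are the mean spot signal and grey bars the local background, in scanner units, by genotype and replicate. The 3 IF1-TG spots read 213 to 287 and all others 126 to 175, over a background of 41 to 50 on every array.

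The 2 Stk38l probes on chromosome 6 gave signals near the 75th percentile of the arrays and differed less. At base 2280 the log2 signal was -1.16, -1.17 and -1.26 in CRL, -1.17, -1.25 and -1.14 in IF1-KO, and -0.68, -0.92 and -1.02 in IF1-TG mice. At base 4473 it was -0.07, 0.24 and -0.15 in CRL, 0.07, -0.08 and -0.22 in IF1-KO, and 0.51, 0.50 and 0.47 in IF1-TG mice. At both probes every IF1-TG array lay above all CRL and IF1-KO arrays, and the CRL and IF1-KO arrays were intermixed. Before scaling to the 75th percentile the genotypes overlapped: the processed intensity at base 4473 was 1829 to 2428 in CRL, 1765 to 2230 in IF1-KO and 2153 to 2462 in IF1-TG mice, and at base 2280 it was 863 to 1124, 926 to 991 and 765 to 1015. The separation at these 2 probes was thus absent before scaling between arrays and appeared after scaling by the 75th percentile, which was lowest on the IF1-TG arrays. At base 757 it was present before scaling. With quantile normalization in place of that scaling, the differences from CRL to IF1-TG mice were 0.32 at base 2280 and 0.49 at base 4473. In whole hippocampus, more transcript per cell and more cells that express the gene cannot be told apart.

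Stk38 showed no such order. Its probe at base 1876 was dim, at -5.36, -5.41 and -4.97 in CRL, -5.12, -4.39 and -5.38 in IF1-KO, and -5.01, -5.16 and -4.94 in IF1-TG mice. Its probe at base 2982 read -0.90, -1.34 and -1.11 in CRL, -1.70, -0.86 and -0.92 in IF1-KO, and -0.79, -1.24 and -1.64 in IF1-TG mice. The 3 genotypes overlapped at both Stk38 probes, and the arrays of a genotype spread more at base 2982 (SD 0.22 to 0.47) than those of the Stk38l probe at base 2280 (SD 0.06 to 0.18).

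**Figure D2:**
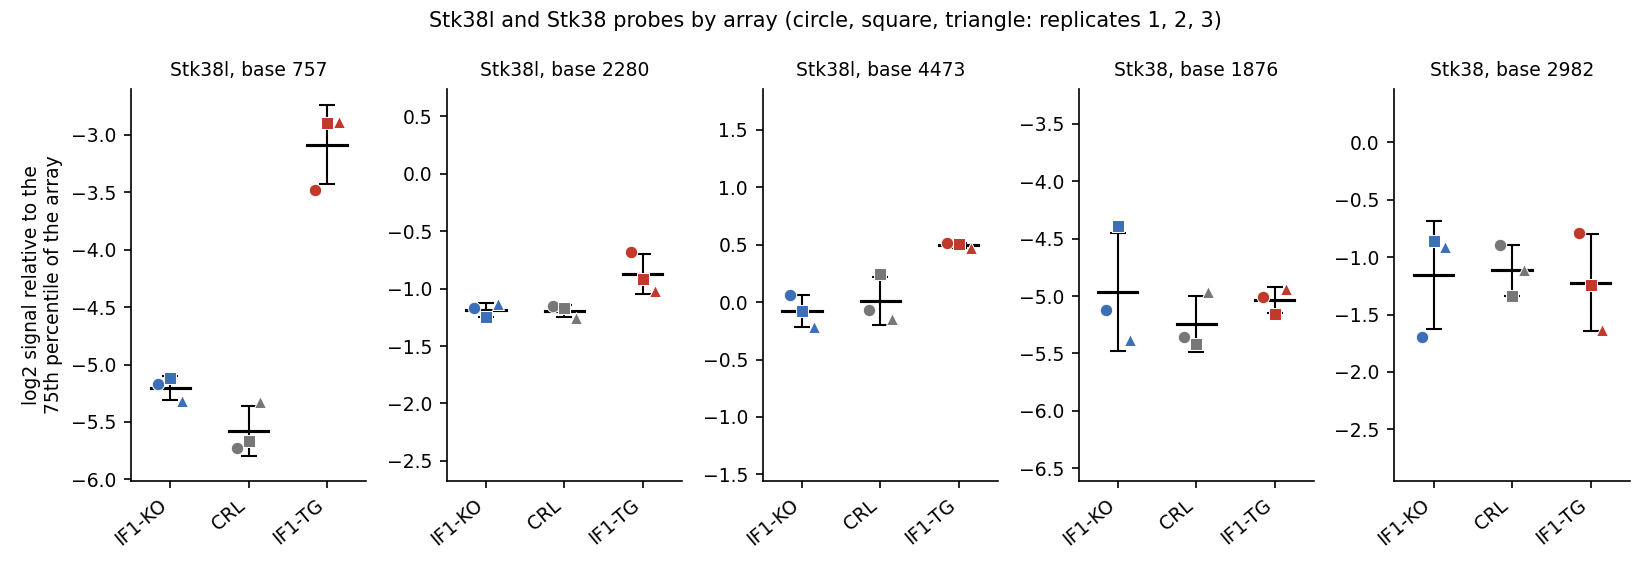
Log2 signal, with the array's 75th percentile at 0, for each Stk38l and Stk38 probe, 1 panel per probe with the same span of the vertical axis, by genotype; symbols are arrays, and the bar and whiskers are the mean and SD of 3 arrays. The IF1-TG arrays stand clear at Stk38l base 757 (-3.48 to -2.89), lie slightly above the others at bases 2280 and 4473, and overlap with them at both Stk38 probes.

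In IF1-KO mice neither kinase gene passed the test. Past a fold change of 1.5 with an unadjusted P value below 0.05, the thresholds of the study's methods, were 0 of the 5 probes in limma, against 1.06% of all 27994 kept probes. No probe of the arrays reached an adjusted P value below 0.05 in this comparison, and 718 had an unadjusted P value below 0.05. At the Stk38l probe at base 757 IF1-KO was higher by 0.37 on the log2 scale (standard error 0.19, 95% interval -0.06 to 0.81, unadjusted P = 0.0814, adjusted P = 1). All IF1-KO arrays lay above all CRL arrays there, as they did at 3.94% of the probes measured on all arrays, but the nearest arrays of the 2 genotypes were -5.32 and -5.33. The difference was 0.53 within slide 2, 0.11 within slide 3, and 0.36 with the unreduced IF1-KO array left out.

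Stk38l on chromosome 6 differed by 0.01 at base 2280 (standard error 0.12, 95% interval -0.26 to 0.28, unadjusted P = 0.934) and by -0.09 at base 4473 (0.14, -0.39 to 0.22, unadjusted P = 0.546). The intervals of both leave out a 1.5-fold difference in either direction. Stk38 differed by 0.28 at base 1876 (0.25, -0.28 to 0.84, unadjusted P = 0.286) and by -0.04 at base 2982 (0.28, -0.68 to 0.60, unadjusted P = 0.885), and these wider intervals include a 1.5-fold difference. Each adjusted P value was 1. With the unreduced IF1-KO array left out, the Stk38l differences were 0.0014 at base 2280 and -0.16 at base 4473, and that of Stk38 was 0.36 at base 1876. At base 2982 it was 0.23 without that array, and it was -0.58 within slide 2 and 0.23 within slide 3. Its sign also turned without CRL replicate 1 (0.07).

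In IF1-TG mice the Stk38l probe at base 757 was 5.61-fold higher than in CRL mice, a log2 difference of 2.49 (standard error 0.19), and 4.33-fold higher than in IF1-KO mice (2.11, standard error 0.19). It ranked 5 of 27994 kept probes by the size of the difference from CRL and 7 by that from IF1-KO. Signals of the probes on chromosome 6 were higher by 0.32 (0.12) at base 2280 and by 0.49 (0.14) at base 4473 than in CRL mice, and by 0.31 (0.12) and 0.57 (0.14) than in IF1-KO mice. These were fold changes of 1.25, 1.40, 1.24 and 1.49, all below 1.5, so that 1 of the 5 probes passed that fold in each comparison. Base 4473 also passed it from CRL without CRL replicate 2 (0.61) and from IF1-KO without the unreduced IF1-KO array (0.64). Of all kept probes, 3.42% were at least 1.5-fold higher in IF1-TG than in CRL mice and 3.14% than in IF1-KO mice, and 6.84% and 8.37% had all IF1-TG arrays above all CRL and above all IF1-KO arrays. Both comparisons share the IF1-TG arrays, and the selection of the genes used these values. The fold change at base 757 also depended on the background correction: with normexp correction of the mean and local background signals and quantile normalization the log2 differences were 1.32 from CRL and 1.15 from IF1-KO mice.

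The IF1-TG differences of Stk38 were 0.21 (standard error 0.25) at base 1876 and -0.11 (0.28) at base 2982 from CRL mice, and -0.07 (0.25) and -0.06 (0.28) from IF1-KO mice. Within slide 2, the only slide with all 3 genotypes, IF1-TG replicate 3 exceeded the CRL mean by 2.81 at Stk38l base 757, 0.14 at base 2280 and 0.39 at base 4473. The corresponding differences of Stk38 on that slide were 0.45 and -0.52. Each of these values rests on 1 IF1-TG array.

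**Figure D3:**
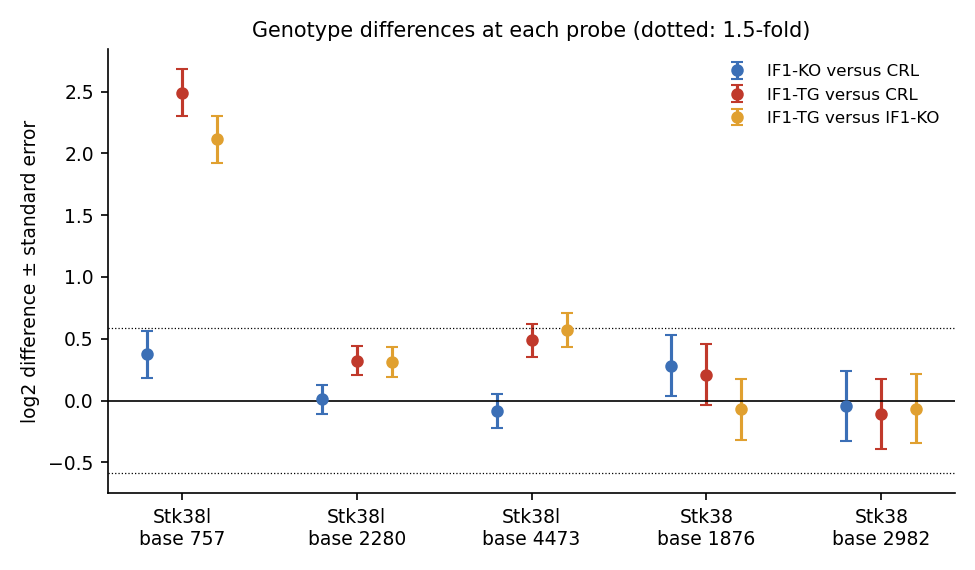
Log2 differences between genotypes at each Stk38l and Stk38 probe, with whiskers of 1 standard error from the limma fit of 9 arrays; dotted lines mark a 1.5-fold change. Only Stk38l base 757 in the comparisons with IF1-TG lies beyond the dotted lines, at 2.49 and 2.11.

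Within genotypes no pair of Stk38l probes showed a strong positive correlation, and 1 pair ran in opposite directions. After the mean of each genotype had been taken off, the correlation over the 9 arrays was -0.93 between bases 757 and 2280, -0.18 between bases 757 and 4473, and 0.16 between bases 2280 and 4473. Without that step the same pairs correlated at 0.75, 0.84 and 0.80, which is the shared difference of the IF1-TG arrays that the selection used. The Stk38 probes correlated at 0.19 within genotypes and 0.13 without that step. These are descriptions over arrays of 3 genotypes that share slides and scaling.

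The largest gap between the differences of the probes of Stk38l was 2.17 on the log2 scale from CRL to IF1-TG mice, which ranked 1 of 4654 gene names with at least 2 kept probes, where the median gap was 0.25. Between IF1-KO and IF1-TG mice it was 1.80, which ranked 7, with a median of 0.24. The gap between IF1-KO and CRL mice, which the selection did not use but which shares the CRL arrays, was 0.46 and ranked 612, with a median of 0.18. For Stk38 the gaps were 0.32 in both comparisons with CRL and 0.0057 between IF1-TG and IF1-KO mice. The gaps in the comparisons with IF1-TG mice restate the selection of the gene and are a description.

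Around the chromosome 1 position given for the probe at base 757, 5 kept probes lay within 500 kb. The transcript ENSMUST00000186731, 404345 bases away, was the only one past both thresholds, higher in IF1-TG mice by 1.08 from CRL (standard error 0.37, unadjusted P = 0.0190, adjusted P = 0.532) and by 0.96 from IF1-KO mice (unadjusted P = 0.0314, adjusted P = 0.681), where 2.83% and 2.15% of all gene names were higher. Gm7967, 135794 bases away, differed from CRL by 0.51 (0.17), TC1715074 by -0.32 (0.18), the septin gene Sept2 by 0.01 (0.16), and a probe without a gene name by 0.17 (0.15). The probes of ENSMUST00000186731, Gm7967 and TC1715074 were also dim, at -5.47, -4.98 and -5.54 in CRL mice. None of the 5 passed both thresholds between IF1-KO and CRL mice, where 1.06% of all kept probes did.

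Near the Stk38l probes on chromosome 6, 17 kept probes of 12 genes lay within 500 kb. Between IF1-TG and CRL mice Asun, known for a role in dynein recruitment and in the Integrator complex, was higher by 0.75 (standard error 0.19, unadjusted P = 0.00377, adjusted P = 0.403), and Gm6654 and 1 of 3 probes of Arntl2, a circadian transcription factor, were lower by -0.73 (0.17, unadjusted P = 0.00200, adjusted P = 0.371) and -0.59 (0.18, unadjusted P = 0.00968, adjusted P = 0.487). Over all gene names 2.83% were higher and 2.80% lower in this comparison. The other 2 Arntl2 probes differed by -0.33 (0.53) and -0.21 (0.13). The same 3 genes passed when IF1-TG was compared with IF1-KO mice, and Klhl42 was lower by -0.61 (0.18, unadjusted P = 0.00769, adjusted P = 0.660), where 2.15% of all gene names were higher and 2.56% lower. None of the 17 probes passed between IF1-KO and CRL mice, where 1.06% of all kept probes did. The neighbours of Stk38l thus did not move in 1 direction, with a median of -0.14 from CRL to IF1-TG mice.

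Near Stk38 on chromosome 17, 34 kept probes of 25 genes lay within 500 kb. The nearest named neighbour, Kctd20, 3202 bases away, differed by 0.11 (standard error 0.19) from CRL to IF1-TG mice and by -0.17 (0.19) from CRL to IF1-KO mice. The splicing factor gene Srsf3 differed by -0.44 to -0.25 over its 3 probes from CRL to IF1-TG mice, and none passed the fold threshold. The dimmest of 3 BC004004 probes was higher in IF1-TG than in CRL mice by 0.66 (0.16, unadjusted P = 0.00332, adjusted P = 0.387), while its other probes differed by 0.21 (0.11) and 0.15 (0.12), and a dim probe of Cdkn1a was lower in IF1-KO mice, as described below. Over all gene names 2.83% were higher in IF1-TG and 0.539% lower in IF1-KO than in CRL mice.

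The other genes of the NDR and Hippo pathways were taken from a list of 40 genes, of which 37 had a kept probe. Mob1a, Tead4 and Ankrd1 did not pass the filter on dim signals. Between IF1-KO and CRL mice 0 genes were higher and 1 was lower, against 0.808% and 0.539% of 21907 gene names. Between IF1-TG and CRL mice 2 were higher and 0 lower, against 2.83% and 2.80% of gene names, and between IF1-TG and IF1-KO mice 0 passed in either direction, against 2.15% and 2.56%. The medians of the brightest probe per gene were 0.04, 0.02 and 0.03 in the 3 comparisons, beside -0.01, -0.00 and 0.01 over all gene names. With 37 genes tested, counts of 0 to 2 did not set the list apart from all gene names.

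Each of the 3 genes past the thresholds passed through a dim probe, with a brighter probe of the same gene that did not, and none of the 3 passed with normexp correction and quantile normalization. Fry, which encodes the Furry scaffold of the NDR kinases, read -6.09, -6.73 and -5.89 in CRL, -5.82, -5.74 and -5.66 in IF1-KO, and -5.04, -5.68 and -4.99 in IF1-TG mice at its dim probe. All IF1-TG arrays lay above all CRL arrays, with a difference of 1.00 (standard error 0.25, unadjusted P = 0.00348, adjusted P = 0.388). At its bright probe, at 2.29 in CRL mice, the difference was 0.12 (0.13, unadjusted P = 0.368).

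Aak1, an endocytic kinase and NDR substrate, passed with 1 of 4 probes. That probe read -3.95, -3.40 and -4.04 in CRL and -3.01, -3.48 and -2.84 in IF1-TG mice, with CRL replicate 2 above IF1-TG replicate 2, and the difference was 0.69 (standard error 0.21, unadjusted P = 0.0113, adjusted P = 0.498). The brightest Aak1 probe, at 5.06 in CRL mice, differed by 0.09 (0.11), and the remaining probes differed by 0.45 (0.25) and 0.26 (0.12). Without CRL replicate 3 or without IF1-TG replicate 3 Aak1 no longer passed.

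Cdkn1a encodes the cell cycle inhibitor p21, which NDR kinases are known to phosphorylate, and lies beside Stk38. Its dim probe was at -6.31, -5.85 and -6.82 in CRL and at -7.14, -7.54 and -6.91 in IF1-KO mice, where it was well above background on 1 of 3 arrays. The difference was -0.87 (standard error 0.29, unadjusted P = 0.0159, adjusted P = 1), while the brighter Cdkn1a probe differed by 0.11 (0.32, unadjusted P = 0.738). The dim probe thus passed the filter on dim signals only through a genotype with a higher mean, which favours a lower value in IF1-KO mice. Cdkn1a no longer passed without IF1-KO replicate 2, without CRL replicate 2 or with slide as a fixed block. It also did not pass when probes had to be well above background on all arrays.

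By role, 0 of the 2 LATS kinases, 0 of the 5 MST kinases and 0 of the 6 MOB proteins with a kept probe passed in any of the 3 comparisons, where at most 2.83% of all gene names passed in 1 direction. From CRL to IF1-TG mice Stk4 passed with quantile normalization and with the replicate number as a block, and Stk4, Mob1b and Lats1 each passed with some single array left out. Mob1b also passed between IF1-KO and CRL mice without IF1-KO replicate 2 or CRL replicate 3, and Stk4 from IF1-KO to IF1-TG mice without IF1-TG replicate 1. The values of single genes in the following sentences were picked after they had been seen. Lats1 differed by 0.38 (standard error 0.22) from CRL to IF1-TG mice and Lats2 by -0.19, and the brightest probes of the MST kinases Stk3, Stk4, Stk24, Stk25 and Stk26 differed by -0.14 to 0.05, while a dim Stk4 probe differed by -0.72 (0.33, unadjusted P = 0.0595). Among the MOB proteins 1 probe of Mob1b differed by 0.54 (0.23, unadjusted P = 0.0462), Mob3a by 0.41 (0.16, unadjusted P = 0.0327) and Mob4 by -0.33 (0.13, unadjusted P = 0.0358), all under a 1.5-fold change.

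All 6 Hippo adaptors had a positive difference at the brightest probe from CRL to IF1-TG mice, from 0.01 to 0.43, beside 49.9% of all gene names, and none passed. From IF1-KO to IF1-TG mice Wwc1, which encodes the memory-linked scaffold KIBRA, differed by 0.55 (standard error 0.18, unadjusted P = 0.0146, adjusted P = 0.660) and Sav1 by 0.39 (0.14, unadjusted P = 0.0240). Wwc1 passed in that comparison when a single array was dropped, be it replicate 1 or 3 of IF1-KO or replicate 2 or 3 of IF1-TG, and Amotl1 passed from CRL to IF1-TG mice without CRL replicate 2. Of the effectors, the coactivator gene Yap1 differed by 0.57 (0.22, unadjusted P = 0.0295, adjusted P = 0.547) and its relative Wwtr1, the gene of TAZ, by -0.43 (0.16, unadjusted P = 0.0262, adjusted P = 0.547) from CRL to IF1-TG mice. Yap1 passed there without CRL replicate 2 or IF1-TG replicate 2, and from IF1-KO to IF1-TG mice without IF1-KO replicate 1. The transcription factor gene Tead3 passed in both comparisons with slide as a fixed block, and from IF1-KO to IF1-TG mice without IF1-TG replicate 3. The YAP target gene Ccn1 differed by -0.71 with a standard error of 0.81. The NDR substrate Rab3ip differed by 0.00 and the calcium sensor S100b, whose protein binds NDR kinases, by 0.00.

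**Figure D4:**
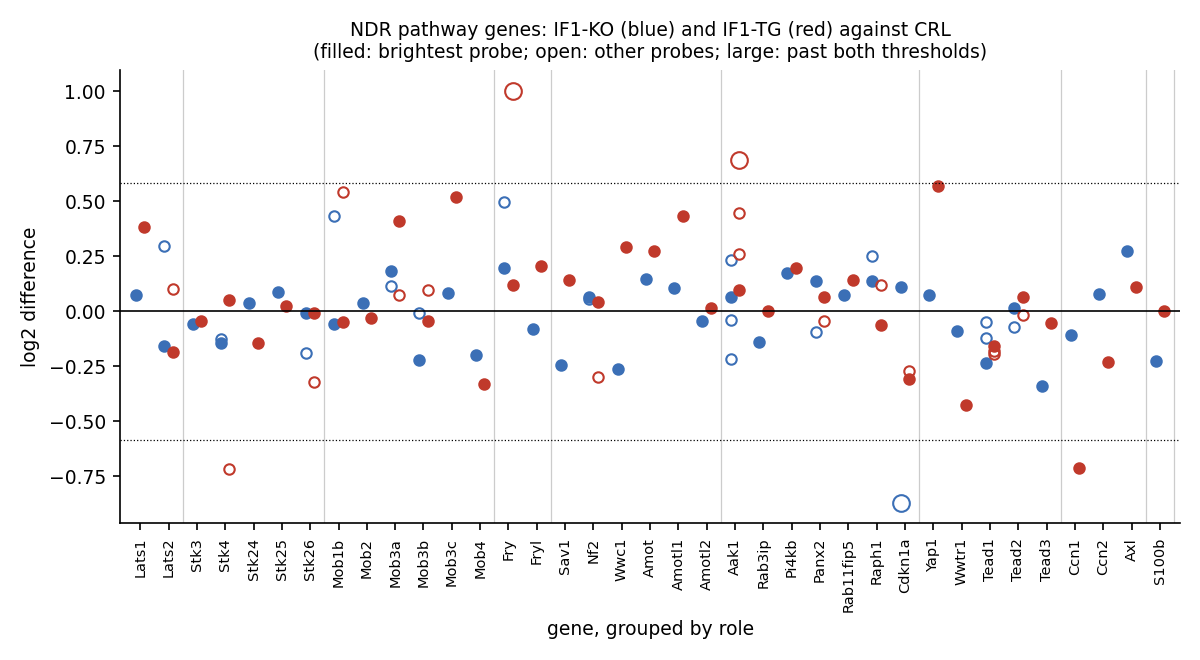
Log2 differences from CRL for the probes of 37 NDR and Hippo pathway genes, grouped by role between grey lines, for IF1-KO (blue) and IF1-TG mice (red); filled points are the brightest probe of a gene, open points its other probes, and large points passed both thresholds, with 1.5-fold dotted. The large points, Fry at 1.00, Aak1 at 0.69 and Cdkn1a at -0.87, are all open.

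The named probes whose log2 signal followed that of the Stk38l probe at base 757 most closely over the 9 arrays were those of Otud7a (Pearson r = 0.96), ENSMUST00000118529 (0.96), Itm2c (0.96), Erv3 (0.94) and Wdr83os (0.94), of 26503 probes compared. Their own differences from CRL to IF1-TG mice were 0.25, 0.14, 0.37, 0.21 and 0.22, so that none of them approached the 2.49 of the Stk38l probe. For the Stk38l probe at base 4473 they included Slc8a2, a sodium/calcium exchanger gene (0.98), Hp1bp3 (0.97), Klc4 (0.96) and Plcb4 (0.95). The differences of these from CRL to IF1-TG mice were 0.18, 0.40, 0.21 and 0.57. Both profiles include the IF1-TG difference that the selection used, and in both the arrays share genotype, slide and scaling.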

How the data were processed

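The authors deposited Agilent Feature Extraction (10.7.3.1) spot intensities of 9 one-colour arrays, with a background surface subtracted within each array and no normalization between arrays; an alternative started from the deposited, uncorrected mean spot signals and local backgrounds. Genotypes and replicate numbers come from the labels, and slides from the array identifiers. Positions of probes (mm9) were taken from the deposited annotation.

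Control and outlier spots were left out, spots of a probe were averaged, and the 75th percentile of each array was subtracted from its log2 processed intensities. Of 39429 probes, 27994 were kept because all 3 arrays of some genotype had them well above background. They carried 21907 gene names, and RefSeq (GRCm38.p6, names only) listed 17093 of these as symbols or synonyms. No spot was saturated. All arrays entered 1 limma fit (3.58.1, R 4.3.3, eBayes) by genotype, with Benjamini-Hochberg adjustment over all kept probes. A probe passed with an unadjusted P value below 0.05 and a fold change reaching 1.5; a gene passed through any of its probes. The number of arrays limits the precision. The fit was tested on simulated data.

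Named are the member probes, Atpif1, list genes past the thresholds, genes within 500 kb, nearest neighbours and the 5 probes most like 2 of the Stk38l probes, of which 1 is not reported here. Other list genes and cell type markers in the text were picked with their values in view. The genes and lists were chosen with earlier results of these data known. Alternatives were normexp correction (offset 50) with quantile normalization, quantile normalization alone, other filters on dim probes, slide or replicate number as a block, only 2 genotypes, eBayes with trend and robust options, and each array left out.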

Additional observations from a re-analysis of the deposited data

How the results depend on the processing

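In all 18 alternatives 0 of the 5 Stk38l and Stk38 probes passed the thresholds between IF1-KO and CRL mice, and the 3 Stk38l probes stayed higher in IF1-TG mice than in both other genotypes. The difference between IF1-KO and CRL mice at Stk38l base 757 ranged from 0.18 to 0.50, with a lowest unadjusted P value of 0.0294. From CRL to IF1-TG mice that probe ranged from 1.32 with normexp correction and quantile normalization to 2.75 with slide as a fixed block. With slide as a fixed block the probes at bases 2280 and 4473 were at 0.15 and 0.39 from CRL, against 0.32 and 0.49 without it. From IF1-KO to IF1-TG mice they were at 0.12 and 0.40, against 0.31 and 0.57.

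Small differences between IF1-KO and CRL mice changed sign. With normexp correction and quantile normalization Stk38l base 2280 was at -0.016 and Stk38 base 2982 at 0.033. Leaving out each array gave -0.022 to 0.043 at Stk38l base 2280, -0.16 to 0.033 at base 4473, -0.0049 to 0.49 at Stk38 base 1876 and -0.19 to 0.23 at base 2982. The number of these probes at least 1.5-fold higher in IF1-TG mice was 1 to 2 with an array left out: 2 from CRL without CRL replicate 2, and 2 from IF1-KO without IF1-KO replicate 1, where Stk38l base 4473 joined.

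The pathway list had 1 gene past the thresholds between IF1-KO and CRL mice, and 0 with normexp correction and quantile normalization, with the filter on all arrays and with slide as a fixed block, and 0 to 3 with an array left out. From CRL to IF1-TG mice it had 2, with 0 under normexp correction and quantile normalization and 2 to 5 with an array left out. Between IF1-TG and IF1-KO mice it had 0, with 1 under quantile normalization, 1 without a filter, 1 with only the 2 genotypes, 3 with slide as a fixed block, and 0 to 3 with an array left out. Over all gene names 294, 1225 and 1030 passed in the 3 comparisons, with ranges of 161 to 1006 (without CRL replicate 3), 557 to 4526 and 554 to 3114, the lowest each with normexp correction and the last 2 highest without a filter, where 82.1% of the probes past the thresholds from CRL to IF1-TG mice were higher, against 50.2%, and 76.7% from IF1-KO to IF1-TG mice, against 45.7%. Without IF1-TG replicate 3 these shares were 25.9% and 23.4%. With normexp correction 82.8% were higher between IF1-KO and CRL mice, against 59.7%. The cause was not tested.

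Samples with the same replicate number share only a number: their deviations correlated at -0.17 to 0.12 over 9 pairs, and those of different numbers at -0.25 to 0.34. With the replicate block the member differences, such as 2.49 and 0.37 at Stk38l base 757, were as without it, and 1, 3 and 0 list genes passed, with Stk4 joining Fry and Aak1 from CRL to IF1-TG mice.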
